A study of Mus musculus with 9 samples.

Results

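In hippocampal neurons given bicuculline a single miRNA, miR-212, passed the test for a higher signal, a call that did not hold under every way of processing the arrays. The miRNA from the neighbouring hairpin, miR-132, was higher on every bicuculline array without passing the main test. It passed with the replicate number as a block, and whether that number marks a shared preparation is not stated. These readings come from the 3 arrays of bicuculline-treated neurons and the 3 arrays of untreated control neurons, which are 6 of the 9 arrays of the series. All 611 mouse miRNAs among the 650 miRNAs on the array were read, and the 39 miRNAs of viruses were left aside. The neurons came from the hippocampus of C57BL/6 mice at postnatal day 1 and had been 10 days in vitro. Bicuculline was given at 50 µM for 4 h, and the control cultures had no added drug. The remaining 3 arrays, used here only for comparison, came from neurons given NMDA at 20 µM with RNA taken at 4 h. All cultures shared the strain, the age, the time in vitro and a change from growth to transfection medium before treatment. Per the study's methods the 3 replicates of a group were independent cell preparations, and what each preparation pooled is not given in the sources used here. Such a culture holds immature neurons together with some glia, so that fewer cells of a type and less RNA per cell cannot be told apart.

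A miRNA is a short RNA that guides the Argonaute protein to messenger RNAs, mainly through its seed, the bases 2 to 8 from its 5′ end, and lowers the output of those messages. Bicuculline blocks the GABA-A receptor, the main inhibitory receptor of the forebrain. In a cultured network this releases bursts of action potentials and drives glutamate receptors at synapses, NMDA receptors included, whereas NMDA added to the bath also reaches the receptors outside synapses. miR-132 and miR-212 are cut from one primary transcript whose promoter is known to respond to the activity-dependent transcription factor CREB, and miR-132 is known for promoting the growth and branching of dendrites.

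Of 10 miRNA names looked up in RefSeq (GRCm38.p6), 8 were matched. The sequences that matter here are those of miR-212 and miR-132, shown with miR-188-5p, the remaining miRNA that was over 20% higher after bicuculline. The array gives miR-132 and miR-212 without an arm, and the 3p arm shown is the one that later naming assigns to these names. The arm was not checked against probe sequences here, and the accessions beside both names in the study's table were not matched to this arm here, so the statements on seed and identity hold only if the probes read the 3p arm. Capitals mark the seed.
mmu-miR-212-3p: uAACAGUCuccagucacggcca
mmu-miR-132-3p: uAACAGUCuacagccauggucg
mmu-miR-188-5p: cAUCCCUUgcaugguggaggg

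miR-212-3p and miR-132-3p carried the same seed, AACAGUC, and were the only 2 mature mouse sequences of the RefSeq table with it. They had the same base at 17 of 22 positions, and all 5 differing positions lay among the 14 after the seed. miR-188-5p had another seed. miR-212-3p lies at chr11:75173443-75173464 and miR-132-3p at chr11:75173723-75173744, both on the plus strand. Their hairpins, of 91 and 66 bases, are 203 bases apart and are printed here to show the shared origin, with the 3p arm in capitals.
Mir212: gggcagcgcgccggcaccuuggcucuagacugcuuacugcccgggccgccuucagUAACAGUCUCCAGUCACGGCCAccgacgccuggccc
Mir132: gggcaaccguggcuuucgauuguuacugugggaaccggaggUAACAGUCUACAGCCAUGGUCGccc

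Signals are given as percent of an array scale, taken from the 75th percentile of the 265 probes detected on each of the 9 arrays, and the brightest probe stands for its miRNA. Between 161 and 205 mouse miRNAs were well above background on the 6 arrays, no spot was saturated, and replicate arrays correlated at 0.986 to 0.995. The arrays lay on 2 slides read with different versions of the scanner software. Slide 1 held control replicates 1 and 2 and bicuculline replicate 1, and slide 2 held control replicate 3 and bicuculline replicates 2 and 3. Differences were tested with limma over the 161 miRNAs that every array of the control group or every array of the bicuculline group measured well above background, and 450 mouse miRNAs were not tested.

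miR-212 gave 7.59%, 19.6% and 14.9% of the array scale in the control cultures, the first of which was not well above background. After bicuculline it gave 48.5%, 48.9% and 60.3%. Every bicuculline array was higher than every control array, and the lowest bicuculline signal was above the brightest control signal by a wide margin. The mean rose from 14.0% ± 6.03 to 52.5% ± 6.68 (SD, n = 3 each), a log2 change of 1.98 or 3.96-fold (standard error 0.29, 95% interval 1.31 to 2.66, limma adjusted p = 0.023). The first control signal lay just under the floor of 7.94% and entered at that floor, which lowers this change only slightly. miR-212 was the only 1 of the 161 tested miRNAs called higher (0.621%), and limma called 0 lower, with 0 lower also at an unadjusted p under 0.05. It met the rule of entry only through the bicuculline group, where it was high, since its first control array was not well above background. Without this filter the call was lost, as given below. The methods' t-test called 0 miRNAs in either direction, with 4 at an unadjusted p under 0.05.

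The rise of miR-212 was of similar size within each slide, with log2 changes of 1.96 on slide 1 and 1.87 on slide 2. With the slide as a block the change was 1.91 and just passed the test (limma adjusted p = 0.0498), and with the replicate number as a block it stayed called (limma adjusted p = 3.9e-05). Its second probe gave 1.95, close to the 1.98 of the probe used. The call did not hold without bicuculline replicate 1 (limma adjusted p = 0.079) or bicuculline replicate 2 (limma adjusted p = 0.101), at log2 changes of 2.04 and 2.03. In the authors' own log2 table the change was smaller, at 0.90 (limma adjusted p = 0.0054).

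Other processing kept the direction of miR-212 but not always its call. The limma adjusted p was 0.066 with the mean of all its probes, 0.102 with normexp background correction (log2 change 1.25), 0.117 with total gene signal, 0.122 without the filter on dim miRNAs and 0.438 with quantile normalization.

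miR-132 gave 107.8%, 154.8% and 136.7% in control neurons and 190.5%, 182.7% and 248.6% after bicuculline. The groups did not overlap, although the brightest control and the dimmest bicuculline culture, both replicate 2, were close together. The log2 change was 0.64 or 1.56-fold (standard error 0.17, 95% interval 0.26 to 1.02), with a limma p of 0.0048 that did not pass adjustment (limma adjusted p = 0.388). Within the slides the change was 0.56 and 0.64, and its second probe gave 0.63. With the replicate number as a block miR-132 passed the test (replicate block, limma adjusted p = 0.017), and the number of miRNAs called was then 2, against 1 without the block. With the slide as a block the change of miR-132 was 0.60 and did not pass (slide block, limma adjusted p = 0.703). Between arrays of the same number the change was 0.82, 0.24 and 0.86 for miR-132 and 2.61, 1.32 and 2.02 for miR-212. For both it was smallest in replicate 2, the only same-numbered pair that lay on different slides. Whether a number marks a shared preparation is not stated in the methods.

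**Figure D1:**
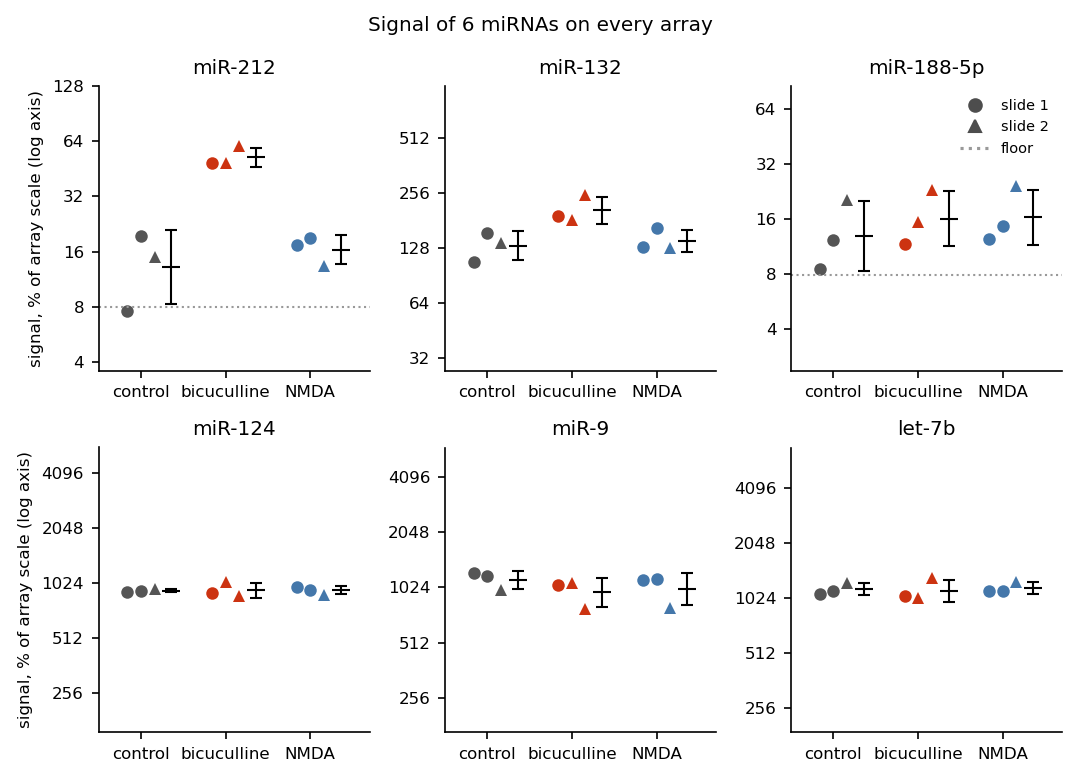
Signal of 6 miRNAs on each array, in percent of the array scale on a log axis that spans the same fold range in every panel, for control, bicuculline and NMDA cultures. Circles are arrays of slide 1 and triangles arrays of slide 2, the bars give the mean and SD of the log2 values (n = 3), and the dotted line is the floor of 7.94%. The bicuculline arrays of miR-212 and miR-132 lie above all control arrays, and for the other 4 miRNAs the groups overlap.

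Neurons given NMDA kept both miRNAs near the control level. miR-212 gave 17.5%, 18.9% and 13.3% after NMDA, all within the range of the control arrays. miR-132 gave 130.3%, 164.7% and 127.8%, of which the second was above the brightest control array. Compared directly with the NMDA arrays, which leaves the control arrays out, miR-212 was higher after bicuculline by 1.68 on the log2 scale (standard error 0.15, 95% interval 1.31 to 2.04, limma adjusted p = 2.7e-04) and was the only 1 of 181 tested miRNAs called higher (0.552%). In the same comparison 15 were called lower after bicuculline than after NMDA (8.29%), miR-689 among them. Of these, miR-690, miR-1187, miR-1892, miR-466f-3p, miR-466i, miR-467f, miR-705 and miR-714 had a bicuculline mean at the floor. They entered the test only through the NMDA arrays, as did miR-574-5p, miR-1897-5p and miR-1904. All 15 but miR-1892 are among the 19 miRNAs that the study listed for NMDA, a list chosen on these same arrays. This count and share therefore follow in large part from the rule of entry. For miR-132 the difference was 0.55 (95% interval 0.19 to 0.92, limma adjusted p = 0.093), again with no overlap between the 3 arrays of each group.

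The other miRNAs formed a narrow band around no change. Of the 161 tested, 61 were above 0 and 100 below, with a median log2 change of −0.02, quartiles of −0.066 and 0.026, and 127 within 0.1 of 0. A fold of 1.2, the lower limit used in the study, was passed upward by 3 miRNAs (1.86%), miR-212, miR-132 and miR-188-5p. It was passed downward by 3 (1.86%), miR-139-3p, miR-689 and miR-135a. With 1 array left out these counts ranged from 2 to 6 upward, the highest without control replicate 3 or bicuculline replicate 1, and from 4 to 8 downward, the highest without bicuculline replicate 1. Apart from miR-212 and miR-132 no tested miRNA had an unadjusted limma p under 0.05, and the smallest was 0.059. With the replicate number as a block 11 miRNAs had one, 5 higher and 6 lower, and apart from miR-212 and miR-132 none passed adjustment. Those with the same sign in all 3 pairs included miR-188-5p, with changes of 0.45, 0.33 and 0.18 (replicate block, limma adjusted p = 0.167), miR-543, with 0.18, 0.28 and 0.32 (adjusted p = 0.307), and miR-135a, with −0.36, −0.32 and −0.27 (adjusted p = 0.149).

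**Figure D2:**
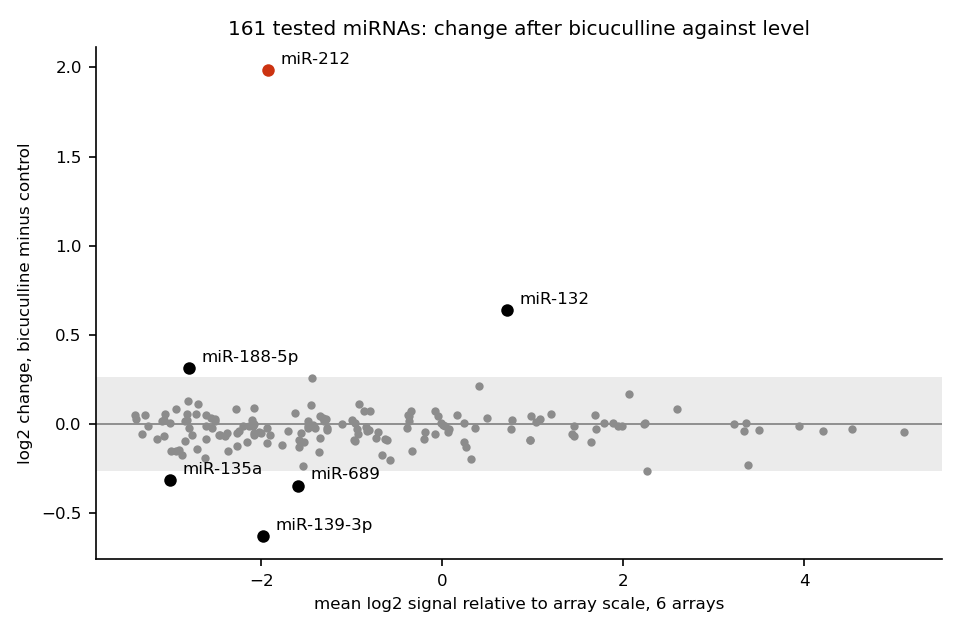
Log2 change of each of the 161 tested miRNAs (bicuculline minus control) against its mean log2 signal on the 6 arrays. The grey band marks changes of less than 1.2-fold, the red point is the miRNA called by limma and the black points are the others past that fold. miR-212 and miR-132 stand above the band at 1.98 and 0.64. miR-139-3p lies about as far below it as miR-132 lies above, at −0.63, and the remaining labelled points lie nearer to the band.

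The arrays bound how large an unseen change could be. The median standard error was 0.11 on the log2 scale, so that a lone miRNA of that precision needed a change of 0.67, or 1.59-fold, to pass adjustment over all tested miRNAs. The 95% interval lay inside a 1.5-fold change either way for 150 miRNAs (93.2%) but inside a 1.2-fold change for only 42. For the other 119 the interval reached past 1.2-fold in at least 1 direction. The 11 miRNAs whose interval reached past 1.5-fold were miR-212, miR-132, miR-188-5p, miR-129-5p, miR-135a, miR-139-3p, miR-301a, miR-689, miR-709, miR-720 and miR-1895.

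The miRNAs over 20% higher or lower other than miR-212 and miR-132 all overlapped between the groups. miR-188-5p, known for a role in dendritic spine plasticity, gave 8.58%, 12.3% and 20.4% in control and 11.7%, 15.4% and 23.1% after bicuculline, a log2 change of 0.32 (standard error 0.34). Within control and within bicuculline its highest array was replicate 3, on slide 2, and the change was 0.19 within slide 1, −0.12 within slide 2 and 0.04 with the slide as a block. Its 4 probes disagreed, with changes from −0.03 to 0.32. Without control replicate 1 its change was 0.02, and without bicuculline replicate 3 it was 0.06.

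miR-139-3p, from the less abundant arm of its hairpin, had the largest fall in the fit, −0.63, and the largest standard error, 0.60. It gave 46.7%, 37.6% and 17.8% in control and 54.3%, 9.89% and 15.9% after bicuculline, so the brightest and the dimmest of the 6 arrays were both bicuculline arrays. The change was 0.37 within slide 1 and −0.51 within slide 2, and −0.10 without bicuculline replicate 2. miR-689 gave 23.0%, 55.5% and 40.4% in control and 23.6%, 31.2% and 34.3% after bicuculline, a change of −0.34 that was −0.06 without control replicate 2. miR-135a gave 16.5%, 16.1% and 10.1% against 12.9%, 12.9% and 8.38%, a change of −0.31 that was −0.34 within slide 1 and 0.04 within slide 2. The limma adjusted p of each of these 4 miRNAs was 0.999.

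Among miRNAs well above background on all 6 arrays, the next rises after miR-132 were miR-543 with a log2 change of 0.26, miR-129-5p with 0.22, miR-22 with 0.17 and miR-92a with 0.13. miR-543, a member of the imprinted Dlk1-Dio3 cluster, gave 30.7% to 35.8% in control and 34.8% to 44.7% after bicuculline, and its groups overlapped on 1 array of each. The further falls were miR-709 with −0.26 and miR-135b with −0.24, and both overlapped between the groups. miR-709 gave 444.7%, 485.3% and 680.0% in control against 279.6%, 450.3% and 676.2% after bicuculline, and without bicuculline replicate 1 its change was 0.07.

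**Figure D3:**
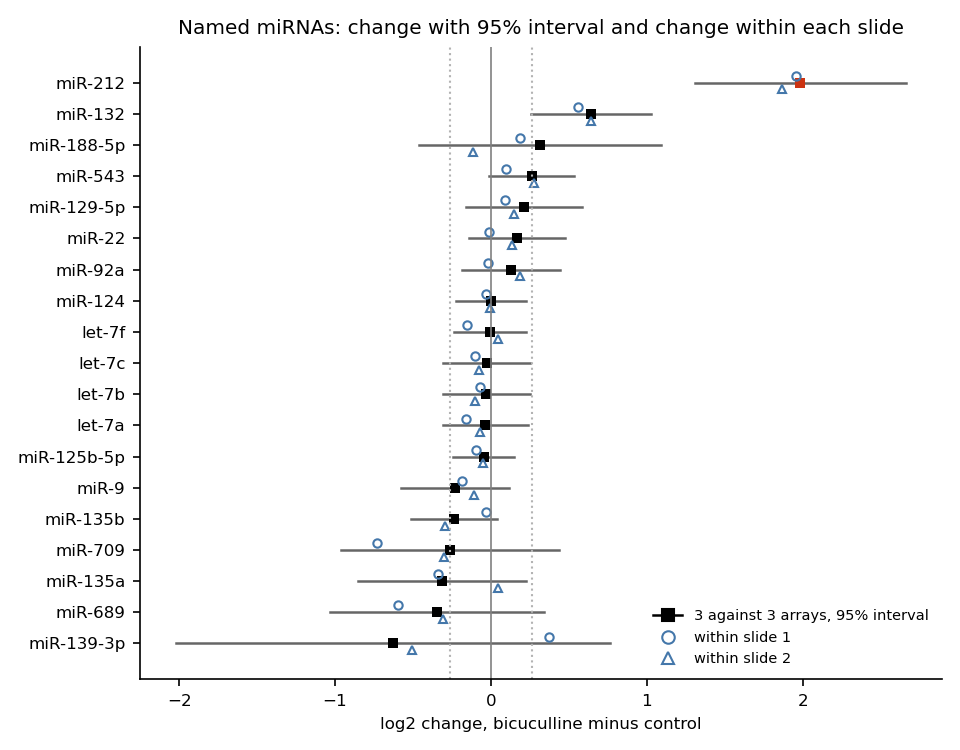
Log2 change (bicuculline minus control) of the named miRNAs with its 95% interval from limma (squares and lines, 3 against 3 arrays) and within each slide (open circles and triangles). The dotted lines mark a 1.2-fold change and the red square is the called miRNA. The interval of miR-212 runs from 1.31 to 2.66 and that of miR-139-3p from −2.02 to 0.77.

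Groups that did not overlap were found for 2 miRNAs in the upward direction (1.24%), miR-212 and miR-132, and for 3 downward (1.86%). The 3 were singled out after their values were seen. In control neurons miR-30c gave 143.1%, 132.7% and 124.5%, and after bicuculline it gave 114.5%, 120.0% and 114.6%, a log2 change of −0.20 (standard error 0.09). The changes of miR-340-3p and of miR-1, a miRNA of muscle, were −0.19 and −0.17. Each of the 3 had a limma adjusted p of 0.999 and lay within 20% of control.

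Of 18 miRNAs linked to synaptic plasticity or dendritic spines, 17 could be tested. Only miR-212 was called, which is also the only call among all 161 tested (0.621%). It was put on this list with earlier results of these data known, so the call says nothing about the list. Of the 17, 9 were above 0 and 8 below, beside 61 and 100 of all tested. Their median log2 change was 0.00, beside −0.02 for all tested miRNAs. miR-134, which limits spine size, stayed near background in all control cultures and was detected on only 1 bicuculline array, with 3.51% to 5.56% over the 6 arrays, and was not tested. miR-138, another inhibitor of spine growth, changed by −0.16, and miR-137, miR-125a-5p and miR-181a by −0.09, −0.09 and −0.15. miR-9, a miRNA of neural cells, gave 1233%, 1175% and 987.8% in control and 1059%, 1077% and 776.4% after bicuculline, a change of −0.23 (standard error 0.15, 95% interval −0.58 to 0.12). For miR-128, enriched in neurons, the change was 0.01, and miR-29a changed by 0.04, miR-26a by −0.10 and miR-92a, known from homeostatic synaptic scaling, by 0.13. The cluster members miR-329, miR-485 and miR-379 changed by 0.01, 0.05 and −0.01. Each of these changes was under 20% and none passed the test.

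The markers of the cells showed neurons on all 6 arrays. All 8 neuron-enriched miRNAs were well above background on each array, with a summed signal of 4179% to 4271% in control and 3942% to 4281% after bicuculline, and their median log2 change was −0.07, with 3 above 0 and 5 below. miR-124, the most specific of these, gave 915.3%, 929.0% and 949.8% in control and 902.5%, 1039% and 865% after bicuculline, a change of 0.00 with a 95% interval of −0.22 to 0.23. Of 18 miRNAs typical of other cell types, 6 were well above background on at least 1 array, and their list summed to 277.1% to 330.4% in control and 285.0% to 316.6% after bicuculline. Found in reactive glia among other cells, miR-21 gave 184.7% to 231.9% in control and 195.6% to 225.0% after bicuculline. The other 5 were miR-338-3p of oligodendrocytes, miR-146b, miR-1 of muscle, miR-146a and miR-126-3p of endothelium, with no value over the 41.1% of miR-338-3p.

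The defining miRNAs of microglia and blood cells, miR-142-3p, miR-142-5p, miR-223, miR-144 and miR-451, were well above background on 0 of the 6 arrays, as were miR-219 of oligodendrocytes, miR-143 and miR-145 of smooth muscle, miR-155, miR-126-5p, miR-133a and miR-206. The highest level among these was the 3.46% of miR-223 on 1 control array, under the floor. The markers of oligodendrocytes, endothelium and muscle were mixed, since miR-338-3p, miR-126-3p and miR-1 were detected, as given above. Of the 18 markers of other cell types only 5 were tested and 0 were called, beside 1 of all 161 tested miRNAs.

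The remaining families were described by their counts and medians, and 0 of their members were called. Of the 9 let-7 miRNAs, a family that restrains growth and that gave 4 of the 5 brightest probe signals in control neurons, 2 were above 0 and 7 below, with a median log2 change of −0.01 and all changes between −0.08 and 0.01. let-7b gave 1073%, 1122% and 1243% in control and 1046%, 1024% and 1312% after bicuculline, a change of −0.03 with a 95% interval of −0.31 to 0.25. miR-125b-5p, the brightest miRNA of the control arrays, changed by −0.05 with an interval of −0.24 to 0.15. The direction of let-7a, let-7b, let-7c, let-7f and miR-125b-5p turned under other scalings, where each stayed within 0.05 of 0.

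All 5 members of the miR-30 family were below 0, with a median of −0.11, from −0.20 for miR-30c to −0.01 for miR-30a, beside 100 of the 161 tested. Below 0 were 4 of the 5 with scaling to all probes, to the median, by quantiles or with normexp, and 3 of 5 without bicuculline replicate 3. With total gene signal, relative to the median of all tested, 3 of 5 were below 0 and the family median was −0.0100. The miR-181 family had 1 of 4 above 0 and a median of −0.06, and the miR-125 and miR-99/100 families had 1 of 5 above 0 and a median of −0.05. The miR-29 family had 2 of 3 above 0 with a median of 0.04, and the miR-23/24/27 clusters had 4 of 5 above 0 with a median of 0.03. The miR-15/16, miR-103 and miR-107 families, with 7 of 7 tested, had a median of −0.0025 and kept within −0.04 and 0.02. Of the miR-17-92 and miR-106b-25 clusters 6 of 9 were tested, with a median of −0.02.

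These directions moved with the scale: with scaling to all probes, where the median of all tested was 0.03, the number below 0 was 1 of 9 for let-7, 2 of 4 for miR-181, 2 of 5 for the miR-125 and miR-99/100 families, and 0 of 7 for miR-15/16, miR-103 and miR-107.

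The Dlk1-Dio3 locus holds the largest group, with 54 miRNAs on the array, some of which are known to respond to neuronal activity. Of these 38 were well above background on at least 1 array and 35 were tested, with 15 above 0, 20 below and a median of −0.01 (0.04 and 9 below with scaling to all probes). They ranged from −0.20 for miR-136 to 0.26 for miR-543, and 0 were called. Star strands, the less abundant arms, were mostly dim, with 20 of 115 well above background on at least 1 array and 13 tested, whose changes ran from −0.14 to 0.11.

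Of the 19 miRNAs that the study listed for NMDA, a list chosen on these samples, 5 could be tested against control after bicuculline, with 1 above 0, 4 below and a median of −0.15. The direction rested on single arrays: the median was 0.0088 without control replicate 3, 0.065 over 7 tested without bicuculline replicate 1 and −0.40 without bicuculline replicate 3. The largest of these changes was that of miR-689, given above, and miR-709, miR-1895, miR-494 and miR-671-5p changed by −0.26, −0.15, −0.05 and 0.05, none of which was called.

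**Figure D4:**
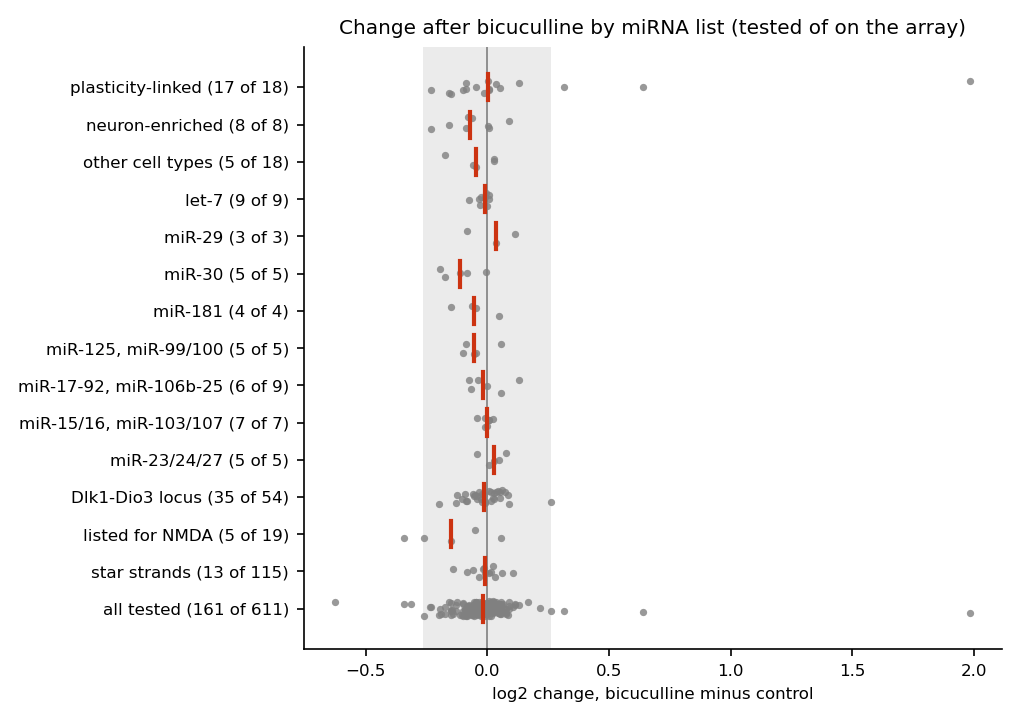
Log2 change (bicuculline minus control) of the tested members of each miRNA list, with the median as a red bar and the number tested of the number on the array in the axis labels. The grey band marks changes of less than 1.2-fold. The members of the families and clusters lie inside the band, the points to its right are miR-212, miR-132 and miR-188-5p of the plasticity list, and the point to its left in the NMDA list is miR-689.

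Most of the array gave no reading in these neurons. Of the 611 mouse miRNAs, 398 were well above background on none of the 6 arrays, 213 on at least 1 and 157 on all 6. No miRNA was well above background on all 3 arrays of one group and on 0 of the other, so no miRNA appeared or disappeared with bicuculline at this sensitivity. A change among the 450 untested miRNAs was not detectable where both groups lay near the floor.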

How the data were processed

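The authors isolated total RNA of 9 cultures and profiled it on 1-colour Agilent mouse miRNA arrays (Release 12.0). The deposited scanner files hold spot intensity values, background-subtracted by Agilent Feature Extraction (10.7.1.1 on slide 1, 10.7.3.1 on slide 2) and not normalized between arrays. The authors also deposited a table of processed log2 values, used only as an alternative, whose normalization is not given in the sources used here. Its columns had medians of 7.06 to 7.08 and followed the scanner values of their own arrays at 0.974 to 0.978. Fold changes and p-values of the study were not used.

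Control spots and 3278 spots marked as feature outliers over the 9 arrays were left out and spots were averaged per probe. A probe counted as well above background if the scanner software marked 50% or more of its spots so. The array scale was the 75th percentile of the 265 probes that passed this on all 9 arrays. Signals under 7.94% of the scale, which is the median across arrays of the weakest passing signal, were raised to that floor, and log2 was taken. For the 646 of 650 miRNAs with several probes the brightest was kept. Groups were compared with limma 3.58.1 (R 4.3.3), two-sided and without covariates, with Benjamini-Hochberg adjustment over all miRNAs tested and a threshold of 0.05. The step was tested on simulated data. The array number limits the precision.

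The members and lists were chosen with earlier results of these data known. Named were miR-132, miR-212, miR-188-5p, let-7b, miR-9 and miR-124, the 5 largest rises and falls among miRNAs well above background on all 6 arrays, any with an unadjusted limma p under 0.05, the 5 brightest in control, any well above background on all 3 arrays of one group and none of the other, and detected members of the plasticity and other cell type lists. Any further names were picked with their values in view.

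To check whether replicate numbers pair the cultures, each array's deviation from its group mean was taken over 157 miRNAs. For same-numbered control and bicuculline arrays these deviations correlated at 0.58, 0.11 and 0.70, all over 0.1. The numbers were treated as pairs only in the alternative with a replicate block, and the main fit had no block. Arrays of different number that shared a slide also passed 0.1. These were control 2 with bicuculline 1 (0.289) and control 3 with bicuculline 2 (0.1003). The remaining combinations, on different slides, were negative, in part because deviations from a group mean cancel within the group. The rule therefore does not separate a shared number from a shared slide. The pairs at 0.58 and 0.70 also share a slide, and the methods name independent cell preparations without saying whether a number marks a shared one. Alternatives were other scalings (all probes, median, quantile, none), other summaries (total gene signal, mean of all probes, the authors' table), normexp with an offset of 50, the methods' t-test, a joint fit of the 9 arrays, other filters, a lower floor, the slide and the replicate number as blocks, and leaving out each array. RefSeq sequences (GRCm38.p6) were matched by name only, since the array headers name another build.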

Additional observations from a re-analysis of the deposited data

How the results depend on the processing

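The call of miR-212 was lost under quantile normalization (log2 change 1.95, limma adjusted p = 0.438), the mean of all probes (2.10, 0.066), total gene signal (2.01, 0.117), normexp (1.25, 0.102), no filter (1.98, 0.122) and the methods' t-test (1.98, 0.998), each of which called 0 miRNAs, as did keeping miRNAs detected on all 6 arrays, where miR-212 was not tested. These settings gave between 1 and 4 unadjusted p under 0.05, and the cause was not tested. With 1 array left out miR-212 changed by 1.62 to 2.27 and 0 to 1 miRNAs were called. With the replicate block 2 miRNAs were called, miR-132 at 0.64 among them, and the block changed no other call. Against NMDA, miR-132 passed with scaling to all probes (0.56 relative to the median of all tested, limma adjusted p of the whole change 0.0012), scaling to the median (0.64, 0.048) and normexp (0.41 relative to the median, 0.040), and miR-212 differed by 1.42 within slide 1 and 2.03 within slide 2.

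miRNAs over 20% higher numbered 5 with scaling to all probes, 5 with scaling to the median, 5 within slide 1, 1 among those detected on all 6 arrays and 2 to 6 with 1 array left out. Those over 20% lower numbered 28 with total gene signal, 0 in the authors' table, 8 within slide 1, 12 within slide 2 and 4 to 8 with 1 array left out. No scaling moved the median of all tested to −0.17 and total gene signal to 0.10, and changes there are relative to it.

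Directions that turned belonged to uncalled changes. With scaling to all probes and scaling to the median, let-7a was at 0.019 and 0.015, let-7b at 0.025 and 0.021, let-7c at 0.028 and 0.024, let-7f at 0.047 and 0.043, and miR-125b-5p at 0.0095 and 0.0057. With total gene signal let-7a was at 0.017, let-7b at 0.024, let-7c at 0.029, let-7f at 0.026 and miR-92a at −2.08, and let-7f was at 0.012 with no scaling. miR-124 was at −0.0082 with the mean of all probes, −0.03 in the authors' table and −0.017 with the slide as a block. With 1 array left out, let-7a ranged from −0.13 to 0.056, let-7b from −0.14 to 0.035, let-7c from −0.14 to 0.039, let-7f from −0.082 to 0.070, miR-124 from −0.076 to 0.056 and miR-709 from −0.57 to 0.065.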
